A study of Mus musculus with 207 samples.

Results

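Livers of C57BL/6 mice on a whey protein diet were compared with livers of mice on a casein diet at FAT-20, the lowest of 3 dietary fat levels. The livers were chosen by their labels alone: 12 libraries labelled WPI-30_FAT-20 and 11 labelled CAS-30_FAT-20, 23 of the 207 libraries of the series, with all 55536 genes of the liver table. The series crossed 2 protein sources, WPI and CAS (whey protein isolate and casein, as known from the study), with fat levels 20, 40 and 55 in 6 diets that shared the protein level 30, and sequenced total RNA of jejunum, liver and hypothalamus. The labels give no unit for these levels and no sex, age, cage or sequencing batch. Each of the 23 libraries had its own mouse identifier, so the spread between them is a spread between animals.

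Metallothioneins are small cysteine-rich proteins that bind zinc and copper. In liver their genes are switched on by zinc through the transcription factor MTF1 and by glucocorticoids, and they are a common readout of metal and stress signals. The leptin receptor passes on the signal of a hormone of fat tissue. Cux2 encodes a homeobox factor that is known in mouse liver as one of the genes set by the sex-specific rhythm of growth hormone. The proteasome, with the ubiquitin enzymes and the unfolding ATPase VCP, is the main route for removing single proteins from a cell.

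Reads on genes numbered 23.2 to 32.3 M a library in the WPI group and 22.5 to 28.2 M in the CAS group. Alb averaged 77800 ± 9750 counts per M (CPM) on WPI and 77100 ± 9460 CPM on CAS (SD, n = 12 and 11). The exocrine pancreas gene Cpa1 was at 0 in all 12 WPI libraries and at most 0.0772 CPM in CAS libraries. Ddx3y, a gene of the Y chromosome, was at 85.7 to 107 CPM on WPI and 84.6 to 107 CPM on CAS. The mouse identifiers share leading characters, here called stems. Each diet has 4 stems of 2 to 3 mice (L3C, L2D, L4D and L4A on WPI; L2B, L2C, L2F and L5A on CAS), and no stem holds both diets; the labels do not say what a stem marks. On the first principal component of log2 CPM, which held 18.8% of the variance, the CAS stem L2C (−15.9 to −18.6) lay beside WPI libraries, and the WPI stem L2D (1.6 to 30) lay beside CAS libraries. A stem and its diet cannot be told apart within 1 stem, so results are given beside their values over stems.

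The quasi-likelihood test of edgeR, fitted on the 70 liver libraries, called 77 of 15051 genes at an adjusted p under 0.05, 0.512% of the genes tested. Of these, 33 (0.219%) were higher and 44 (0.292%) lower on WPI, and 2053 genes had an unadjusted p under 0.05. The median log2 fold change over all genes was 1e-04, so the groups were centred. With the reads of each stem summed, edgeR called 0 of 17545 genes, although 1343 had an unadjusted p under 0.05. With stem as a random effect in limma-voom, 7 genes were called (0.0465%), all of them among the 77, and 1338 genes had an unadjusted p under 0.05. Without regard to a test, the means of the 4 WPI stems and of the 4 CAS stems did not overlap in 44 of the 77 genes, against 3.91% of all genes tested. The 77 genes were picked for their difference in these same libraries, so nothing is read from the gap between these shares.

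The metallothionein gene Mt1 was higher in WPI livers by a factor of 4.12. It lies at chr8:94179082-94180327 on the plus strand (GRCm38, GENCODE M21, ENSMUSG00000031765), beside Mt2 at chr8:94172664-94173568 (ENSMUSG00000031762). The 300 bases around the start of each gene (RefSeq, GRCm38.p6, plus strand, 250 before and 50 after the start) are shown because these are the promoters of the most changed metal genes. Capitals mark every match on either strand to TGCACNC or TGCGCNC, the core letters of the metal response element that MTF1 binds.
Mt1: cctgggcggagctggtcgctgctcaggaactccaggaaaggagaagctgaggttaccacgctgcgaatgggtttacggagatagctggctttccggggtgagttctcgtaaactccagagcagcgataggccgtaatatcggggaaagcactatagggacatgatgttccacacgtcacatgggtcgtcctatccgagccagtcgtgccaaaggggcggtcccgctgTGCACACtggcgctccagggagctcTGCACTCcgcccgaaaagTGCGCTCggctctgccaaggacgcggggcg
Mt2: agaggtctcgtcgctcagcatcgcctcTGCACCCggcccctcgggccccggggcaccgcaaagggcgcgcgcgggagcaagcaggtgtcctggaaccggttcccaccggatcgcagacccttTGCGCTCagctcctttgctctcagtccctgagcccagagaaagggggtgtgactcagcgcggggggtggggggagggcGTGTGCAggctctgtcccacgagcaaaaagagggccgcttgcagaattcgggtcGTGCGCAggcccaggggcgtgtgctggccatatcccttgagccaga
The Mt1 window (chr8:94178839-94179138) held 3 matches, a number reached or passed by 1.97% of 32851 promoters of the same length, and the Mt2 window (chr8:94172368-94172667) held 4, reached or passed by 0.517%. A single match is common, present in 25.7% of promoters, and a match describes letters, not a bound site.

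Mt1 in WPI livers had a lowest level of 9.56 CPM, a median of 82.3 and a highest of 233, against 4.89, 17.5 and 58.6 CPM in CAS livers. The groups overlapped, but 11 of 12 WPI livers lay above the CAS median and 7 lay above every CAS liver. The log2 fold change was 2.04 ± 0.40 (SE) with an adjusted p of 0.00694 in edgeR. The WPI stem means were 91.9 (L3C), 58.0 (L2D), 81.0 (L4D) and 152 CPM (L4A), and the CAS stem means were 27.7 (L2B), 21.3 (L2C), 29.8 (L2F) and 9.87 CPM (L5A). All 4 WPI stems thus lay above all 4 CAS stems, and the exact two-sided permutation test over stems gave p = 0.0286, the smallest that its 70 splits allow. Adjusted over the 4 genes so tested (Mt1, Mt2, Cux2 and Lepr), it was 0.0381. These 4 genes were chosen with earlier results of these data known, so their permutation p-values are a description and no independent support. The call was kept without any single library (adjusted p up to 0.0208), and was lost without stem L4A, with an adjusted p of 0.062. With stem as a random effect the log2 fold change was 2.02 and its adjusted p 0.122.

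Mt2 was also higher on WPI, on few reads. Its WPI livers had 0 to 81 reads each, with a median of 0.269 and a highest value of 2.76 CPM, and its CAS livers had 0 to 7 reads, with a median of 0.0772 and a highest value of 0.265 CPM. In all, 6 WPI livers exceeded every CAS liver, while 1 WPI liver and 2 CAS livers had no read. The log2 fold change was 2.83 ± 0.61 (edgeR, adjusted p = 0.016), and without WPI replicate 10 it was 2.41 with an adjusted p of 0.0514. The exact permutation test over stem means gave p = 0.0571, and the stem means ran from 0.154 to 1.71 CPM on WPI and from 0.0427 to 0.174 CPM on CAS. Mt2 overlaps the antisense gene Gm45774 (chr8:94170748-94173412, minus strand), and since the strand setting of the counts is not given, reads of the pair cannot be told apart.

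Of 19 tested genes of metallothioneins and zinc handling, 2 were called, Mt1 and Mt2, both higher, against 0.512% of all genes tested. The median log2 fold change of the list was −0.04. An unadjusted p under 0.05 was found for 7 of the 19, against 2053 of the 15051 genes tested; the other members among the 7 had negative values, with the metal exporter Slc30a10 lowest at −0.66 (adjusted p = 0.312). The list had 1 call with only the libraries of both diets in the fit and 1 with quality weights, and 0 with stem sums or with stem as a random effect. The MTF1 gene itself, Mtf1, had a log2 fold change of −0.02 (adjusted p = 0.93). Slc30a1, a zinc exporter that is a target of MTF1, had −0.07 (adjusted p = 0.874). Glucocorticoid-induced genes, which also hold metallothioneins, had 2 of 27 called, again Mt1 and Mt2. Fasting-induced liver genes had 3 of 24 called, Mt1 and Mt2 higher and Lepr lower, with a list median of 0.09. With only the libraries of both diets in the fit 1 of these was called, and with stem sums or stem as a random effect 0.

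**Figure D1:**
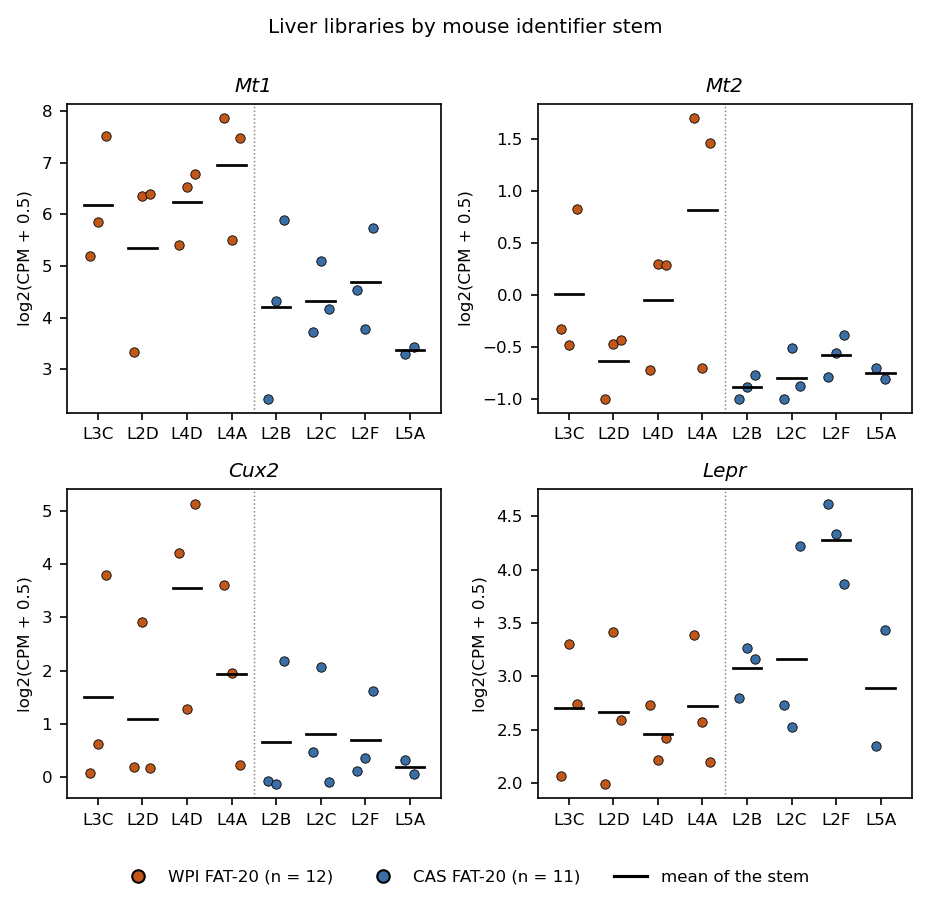
Levels of Mt1, Mt2, Cux2 and Lepr in each liver library, as log2(CPM + 0.5), by mouse identifier stem. Orange points are WPI FAT-20 libraries (n = 12), blue points CAS FAT-20 libraries (n = 11) and black lines stem means. Every WPI stem of Mt1 and Cux2 lies above every CAS stem, and for Lepr below, while the libraries of each gene overlap.

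Cux2, a female-predominant homeobox factor of mouse liver (chr5:121856366-122050102, ENSMUSG00000042589), had the next largest rise among genes with at least 1 CPM after Fosb. Its lowest, median and highest levels were 0.55, 2.66 and 34.7 CPM on WPI, against 0.41, 0.755 and 4.05 CPM on CAS. A few livers carried the rise: WPI replicates 3, 5, 7, 9 and 10 exceeded every CAS liver, and 4 of 12 WPI livers lay at or below the CAS median. The log2 fold change was 2.50 ± 0.49 (edgeR, adjusted p = 0.00694). With only the libraries of the 2 diets in the fit the adjusted p was 0.119, and in limma-voom with quality weights 0.0604. Without stem L4D, whose mean was 18.2 CPM, it was 1.65 and the adjusted p 0.147. The means of the other WPI stems, 5.01 (L3C), 2.78 (L2D) and 5.24 CPM (L4A), still exceeded the highest CAS stem mean of 1.66 CPM. The exact permutation test over stems gave p = 0.0286, the smallest possible (0.0381 adjusted over the 4 genes so tested), a description as for Mt1. Without WPI replicate 9, the liver at 34.7 CPM, the log2 fold change was 1.97 (adjusted p = 0.0345), and with stem as a random effect it was 1.70 (adjusted p = 0.448).

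No other member of the 2 lists of sex-biased liver genes was called by edgeR at FAT-20. The lists do not hold every sex-biased gene, and the urinary protein gene Mup2, outside them, was called lower on WPI. Of 24 tested female-biased liver genes, Cux2 alone was called in edgeR (3 in DESeq2), while 22 had a positive log2 fold change and the list median was 0.51. An unadjusted p under 0.05 in edgeR was found for 8 of the 24, against 2053 of the 15051 genes tested. The summed level of the list was 656 to 2660 CPM on WPI (median 1680) and 493 to 2100 CPM on CAS (median 936). Cyp2b10, a cytochrome induced through the receptor CAR, had 0 to 3.72 CPM on WPI and 0 to 0.686 CPM on CAS, with a log2 fold change of 2.81 ± 0.88 and an adjusted p of 0.125. Of 31 tested male-biased genes, 0 were called by edgeR and 28 had a negative value, with a list median of −0.23; 4 of the 31 had an unadjusted p under 0.05. DESeq2 called 1 of them and limma-voom with quality weights 2. In the growth hormone axis, Cux2 was the only call among 16 genes. Beside these lists, edgeR called 0.512% of all genes tested. The growth hormone receptor gene Ghr (0.00) and the gene Igf1 (−0.01) had log2 fold changes near 0. Socs2 and Onecut1, both known to respond to growth hormone, had −0.74 and −1.17 (adjusted p = 0.346 and 0.257).

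Lepr, the leptin receptor gene (chr4:101717404-101815352, ENSMUSG00000057722), was lower on WPI. Its lowest, median and highest levels were 3.47, 5.49 and 10.2 CPM on WPI, against 4.6, 9.13 and 24.1 CPM on CAS. The groups overlapped, and 4 WPI livers lay below every CAS liver. The log2 fold change was −0.91 ± 0.19 (edgeR, adjusted p = 0.0147), a level 1.88 times as high in CAS livers. The WPI stem means lay close together, at 5.06 to 6.52 CPM, while the CAS stem means were 8.01 (L2B), 9.89 (L2C), 19.3 (L2F) and 7.46 CPM (L5A). The stems did not overlap, and the exact permutation test over stems gave p = 0.0286 (0.0381 adjusted over the 4 genes so tested). That is the smallest p possible and, as for Mt1, a description. Without stem L2F, the highest, the log2 fold change was −0.49 and the adjusted p 0.239. The adjusted p was 0.138 with only the libraries of the 2 diets in the fit and 0.221 with stem as a random effect. Lepr was the only call among 18 tested genes of leptin signalling, whose median was −0.04, against 0.512% of all genes tested called. Stat3, which carries the signal from the receptor, had 0.12 (adjusted p = 0.527), Socs3, its feedback inhibitor, 0.18 (adjusted p = 0.822), and Leprot, which shares the receptor's locus, 0.04 (adjusted p = 0.83).

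The 7 genes still called with stem as a random effect were Aldh1b1, Antxr2 and Adam11, higher on WPI, and Serpina12, Hspb6, Spryd7 and Nsfl1c, lower on WPI. Aldh1b1, a mitochondrial aldehyde dehydrogenase (chr4:45799022-45804604, ENSMUSG00000035561), had the smallest adjusted p of all genes, 0.000536. Its lowest, median and highest levels were 27.9, 54.4 and 75.7 CPM on WPI, against 17.5, 30.7 and 44.5 CPM on CAS, and 11 of 12 WPI livers lay above every CAS liver. The log2 fold change was 0.85 ± 0.14, a factor of 1.81. The stem means were 44.8 to 64.2 CPM on WPI and 19.8 to 36.2 CPM on CAS, without overlap.

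Serpina12, which encodes the secreted serpin vaspin (chr12:104028769-104044443, ENSMUSG00000041567), had the smallest adjusted p among the genes lower on WPI. It had 10.2, 16.2 and 27.8 CPM as lowest, median and highest levels on WPI, against 20.4, 42.8 and 71.2 CPM on CAS, and 9 of 12 WPI livers lay below every CAS liver. Its log2 fold change was −1.34 ± 0.24 (edgeR, adjusted p = 0.00197), a level 2.53 times as high in CAS livers. Stem means were 13 to 25.3 CPM on WPI and 37.1 to 56.8 CPM on CAS.

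Antxr2, a receptor for anthrax toxin and for matrix collagen (chr5:97882783-98031043, ENSMUSG00000029338), had a median of 38.2 CPM on WPI (25.4 to 46.2) and of 28.3 CPM on CAS (24.1 to 32.7). Its log2 fold change was 0.42 ± 0.07 (edgeR, adjusted p = 0.00161). Adam11, a member of the ADAM family without protease activity (ENSMUSG00000020926), had a median of 18.3 CPM on WPI (9.14 to 28.6) and of 7.63 CPM on CAS (4.17 to 13.8), with a log2 fold change of 1.09 ± 0.22 and an adjusted p of 0.00694. For both genes the stem means did not overlap, at 33.3 to 43.1 CPM on WPI and 26.8 to 30.6 CPM on CAS for Antxr2 and at 13.5 to 21.1 CPM on WPI and 5.97 to 12 CPM on CAS for Adam11. The call of Adam11 was lost without stem L4D, with an adjusted p of 0.0574.

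The 3 remaining genes had smaller steps. Hspb6, a small heat shock protein gene (chr7:30552178-30555443, ENSMUSG00000036854), had a median of 14.8 CPM on WPI (12.6 to 18.4) and of 20.3 CPM on CAS (13.4 to 22.8), with a log2 fold change of −0.37 ± 0.07 and an adjusted p of 0.00444. Its CAS stem L2C, at 14.8 CPM, lay within the WPI stem means of 14.2 to 15.7 CPM, while the other CAS stems were at 20.4, 21.8 and 20.7 CPM. Spryd7 (chr14:61531993-61556886, ENSMUSG00000021930) had medians of 18.3 CPM on WPI and 23.7 CPM on CAS, a log2 fold change of −0.32 ± 0.06 and an adjusted p of 0.00418. Its stem means overlapped, at 17.5 to 20.6 CPM on WPI and 20.1 to 24.6 CPM on CAS. Nsfl1c, which encodes the VCP cofactor p47 (chr2:151494182-151511414, ENSMUSG00000027455), had medians of 41.9 CPM on WPI and 52.0 CPM on CAS, a log2 fold change of −0.23 ± 0.05 and an adjusted p of 0.00932. Its WPI stem L2D stood at the level of CAS stems and its CAS stem L2C nearer to WPI stems, so its stem means overlapped (40.2 to 50.7 CPM on WPI and 45.8 to 56.2 CPM on CAS), and its adjusted p without stem L4D was 0.0895.

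**Figure D2:**
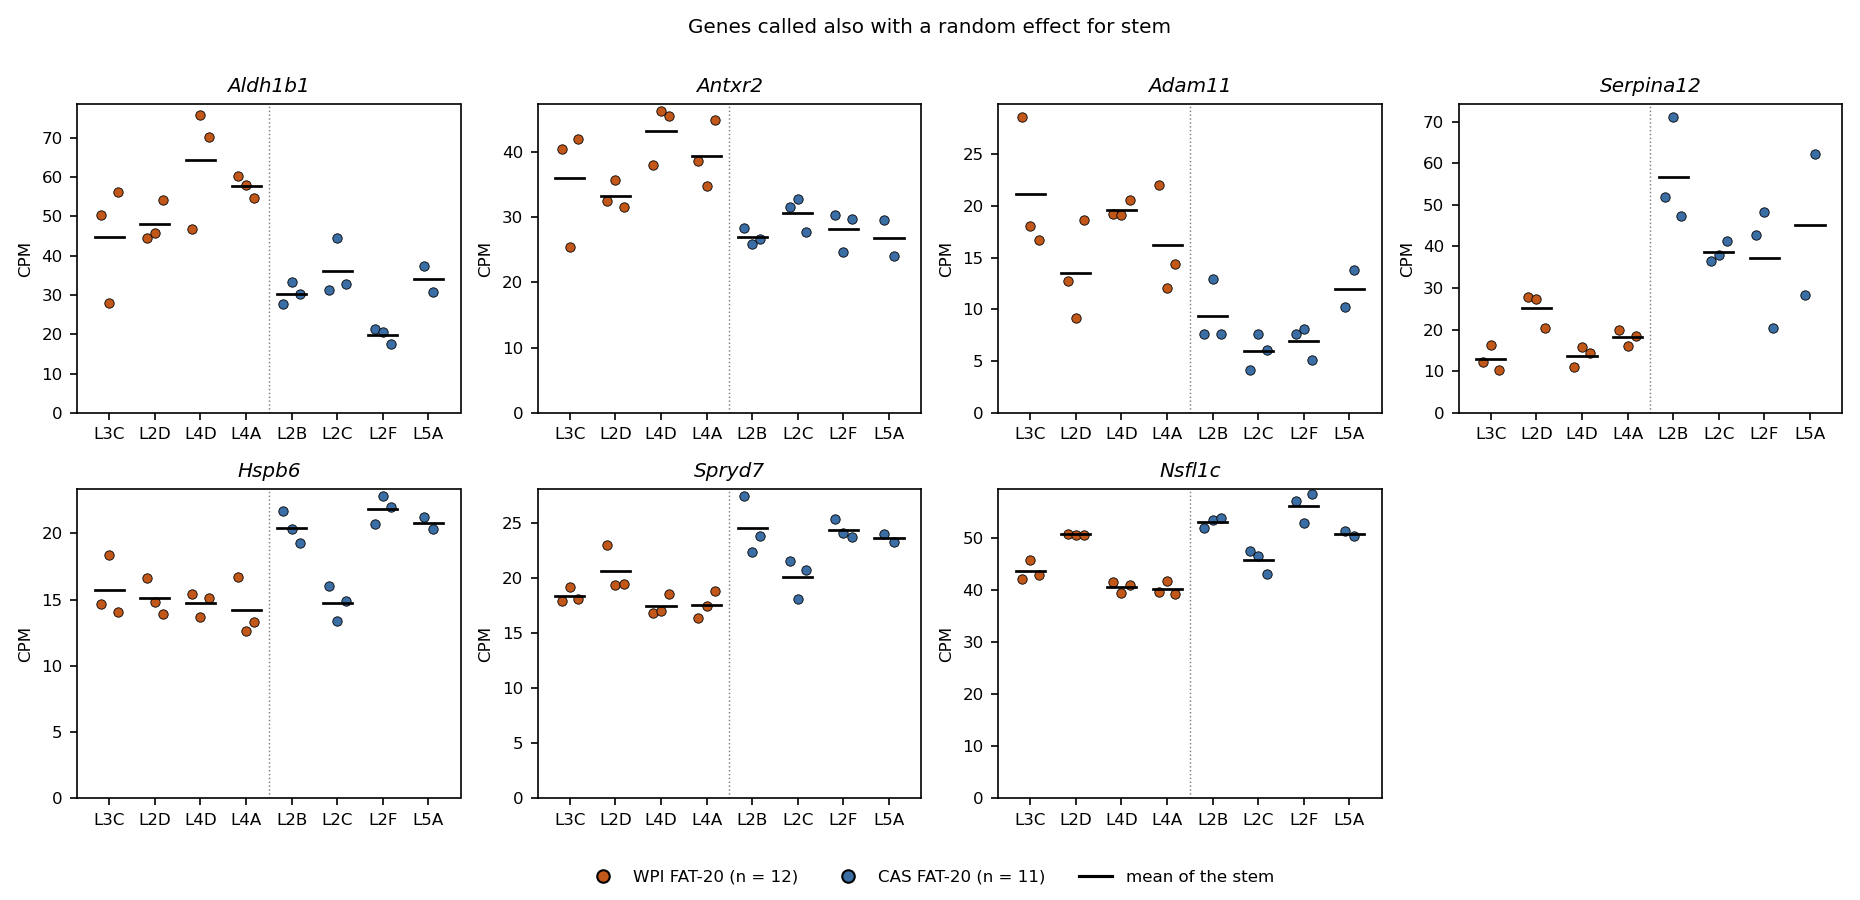
Levels in CPM of the 7 genes also called with stem as a random effect, in each library, by mouse identifier stem; axes start at 0. Orange points are WPI FAT-20 libraries (n = 12), blue points CAS FAT-20 libraries (n = 11) and black lines stem means. The WPI stem means of Aldh1b1 (44.8 to 64.2 CPM) lie above all CAS stem means, and those of Serpina12 (13 to 25.3 CPM) below.

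Among other genes with large differences, Adora1, the adenosine A1 receptor, had 31.1, 42.1 and 54.7 CPM as lowest, median and highest levels on WPI, against 13.7, 24.3 and 37.4 CPM on CAS. Its log2 fold change was 0.76 ± 0.16 (edgeR, adjusted p = 0.0121), 9 of 12 WPI livers exceeded every CAS liver, and the stem means did not overlap. Slc25a30, a mitochondrial carrier, had 18.9, 37.2 and 104 CPM on WPI and 32.2, 75.1 and 411 CPM on CAS, with a log2 fold change of −1.47 ± 0.34 and an adjusted p of 0.0259. The liver at 411 CPM weighed most: without CAS replicate 1 the log2 fold change was −1.05 and the adjusted p 0.164, and without WPI replicates 3, 7 or 9 the adjusted p was 0.0513, 0.0545 and 0.0509. Srd5a1, a steroid 5-alpha reductase, had a log2 fold change of −0.52 (adjusted p = 0.0347), and was called in 11 of the 23 fits without 1 library. The long non-coding RNAs Gm38416 (−1.50, adjusted p = 0.0475) and Gm26917 (−0.83, adjusted p = 0.0341) were lower on WPI. Stem means overlapped between diets for Slc25a30 (27.2 to 59.5 CPM on WPI, 47 to 205 CPM on CAS), Srd5a1 and Gm26917, and did not for Gm38416.

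Fosb, an immediate early gene that rises within minutes of a stimulus, had the largest log2 fold change, 3.85 ± 0.79 (edgeR, adjusted p = 0.00964). Its median was 0.97 CPM on WPI and 1.01 CPM on CAS, and its highest level was 129 CPM on WPI and 4.54 CPM on CAS. WPI replicates 5 and 3, at 129 and 73.8 CPM, made the difference; without replicate 5 the log2 fold change was 2.63 and the adjusted p 0.0608, and DESeq2 gave −0.57 with an adjusted p of 0.5. Fos, looked at after these values were seen, had its highest levels in the same livers, 260 and 205 CPM, against a median of 9.45 CPM on WPI and 5.27 CPM on CAS, and was not called by edgeR (log2 fold change 2.19, adjusted p = 0.0799), while DESeq2 called it (2.19, adjusted p = 0.0272). Of 24 tested immediate early genes, edgeR called Fosb alone, against 0.512% of all genes tested, and DESeq2 called 3. The list median was 0.37, and 21 of the 24 had a positive value, against 7532 of the 15051 genes tested. An unadjusted p under 0.05 in edgeR was found for 8 of the 24, against 2053 of the 15051.

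The remaining genes of the largest-change group were higher on WPI at low levels: Sult2a7, a sulfotransferase (0.99), Fam81a (0.97), Cdh18, a cadherin (0.95), Trps1, a zinc-finger repressor (0.73), Phf11c (0.70) and Pcbp3, an RNA-binding protein (0.64). Their adjusted p ran from 0.023 for Phf11c to 0.0448 for Sult2a7, and of the 23 fits that each left out 1 library they were called in 7 (Sult2a7) to 18 (Phf11c). Phf11c owed part of its value to WPI replicate 3, at 44.7 CPM, without which its adjusted p was 0.106. Lower on WPI were Mup2, a major urinary protein gene (−0.72, adjusted p = 0.0369), Casp8, an initiator caspase (−0.28, adjusted p = 0.0455) and Rpn1, a subunit of the oligosaccharyltransferase (−0.28, adjusted p = 0.0437), which kept their calls in 12, 10 and 10 of these fits. Mup2 and Sult2a7 belong to families of near-identical genes, and how reads were shared among copies is not given, so their levels are uncertain. Stem means overlapped between diets for Fam81a, Cdh18, Phf11c, Pcbp3, Mup2 and Casp8, and did not for Sult2a7, Trps1 and Rpn1.

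In iron handling, 2 of 20 tested genes were called, in opposite directions, against 0.512% of all genes tested. Ftl1, the ferritin light chain that stores iron, had 404, 436 and 528 CPM as lowest, median and highest levels on WPI, against 298, 370 and 418 CPM on CAS, and a log2 fold change of 0.31 ± 0.08 (adjusted p = 0.0445). Slc11a2, which carries iron into the cytosol, had 20, 25.9 and 28.5 CPM on WPI, against 27.4, 30.4 and 41.2 CPM on CAS, and a log2 fold change of −0.33 ± 0.08 (adjusted p = 0.0326). The stem means of both genes did not overlap between the diets, as in 44 of the 77 called genes and 3.91% of all genes tested. Both calls depended on single libraries: Ftl1 was called in 9 of the 23 fits without 1 library, and Slc11a2 in 19, the exceptions being CAS replicates 1 and 8 and WPI replicates 7 and 10 (adjusted p = 0.0591 to 0.087). Of the 20 genes, 0 were called without a filter on low counts, with stem sums or with stem as a random effect, and 4 with quality weights. The heavy chain Fth1 had 0.10 (adjusted p = 0.628), the haem oxygenase Hmox1 0.50 (adjusted p = 0.0799) and the iron hormone Hamp −0.24 (adjusted p = 0.688). Ftl1-ps1, a copy of Ftl1, was called in the same direction (0.58, adjusted p = 0.0445). Reads that matched several places were counted apart from genes, so the levels of the pair are uncertain.

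Some genes of protein breakdown, splicing and the early secretory route were called lower on WPI by small steps, and 0 were called higher. The lists for these groups were written after their calls had been seen, so their counts are a description. Of 33 subunits of the 26S proteasome, 4 were called lower, 0 higher, and all 33 had a negative log2 fold change, with a median of −0.13. Among all genes tested, 0.292% were called lower and 7519 of 15051 had a negative value. In edgeR 25 of the 33 had an unadjusted p under 0.05, against 2053 of the 15051. DESeq2 called 8 of them, limma-voom with quality weights 22 and edgeR without a filter on low counts 1. The summed level of the subunits was 2260 to 2570 CPM on WPI (median 2300) and 2330 to 2800 CPM on CAS (median 2570). Psmd1, a scaffold of the regulatory particle, had 78.6, 86.7 and 108 CPM as lowest, median and highest levels on WPI, against 82.5, 108 and 125 CPM on CAS (log2 fold change −0.25 ± 0.05, adjusted p = 0.0121). Psma5, Psmd12 and Psma3 had −0.22, −0.20 and −0.17 (adjusted p = 0.023, 0.023 and 0.0496). The stem means of Psmd1 overlapped between diets, at 84.1 to 102 CPM on WPI and 95.1 to 116 CPM on CAS. Those of Psma5 and Psmd12 overlapped as well, and those of Psma3 did not.

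Of 27 genes of ubiquitin activation and VCP partners, 7 were called lower and 0 higher, with a list median of −0.10. The shares over all genes tested were 0.292% lower and 0.219% higher. Without a filter on low counts edgeR called 2, and with only the libraries of the 2 diets 3. Vcp, the unfolding ATPase, had 234, 265 and 318 CPM on WPI, against 271, 307 and 353 CPM on CAS (log2 fold change −0.22 ± 0.05, adjusted p = 0.0154). Uba1, which activates ubiquitin, had −0.18 (adjusted p = 0.0166). The deubiquitinases Usp14 and Usp5 had −0.17 and −0.14 (adjusted p = 0.0179 and 0.0241), and Ube2n and Ube2v2, which form a conjugating pair, −0.17 and −0.22 (adjusted p = 0.0179 and 0.0423). Every WPI stem mean of Uba1, Usp14, Usp5, Ube2n and Ube2v2 lay below every CAS stem mean. Those of Vcp overlapped, at 246 to 304 CPM on WPI and 283 to 339 CPM on CAS. Stem means did not overlap in 44 of the 77 called genes and in 3.91% of all genes tested. The genes named here were picked by their calls in the same libraries, so nothing is read from this.

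For the next 3 lists, the shares over all genes tested were 7519 of 15051 with a negative value and 0.292% called lower. In splicing, 8 of 12 SR factors had a negative log2 fold change and 2 were called lower, Srsf3 (−0.25, adjusted p = 0.0241) and Srsf1 (−0.26, adjusted p = 0.0347). Of 19 genes of the PRP19 complex and spliceosome activation, 15 had a negative value and 3 were called lower: Prpf19 (−0.20, adjusted p = 0.0179), Smu1 (−0.20, adjusted p = 0.0154) and Zmat2 (−0.20, adjusted p = 0.023). Of 31 genes of early secretory coats and carriers, 25 had a negative value and 4 were called lower: Rpn1, Tmed4 (−0.24, adjusted p = 0.0162), Sec13 (−0.20, adjusted p = 0.0347) and Copb1 (−0.16, adjusted p = 0.026). Single libraries decided some of these calls: of the 23 fits that each left out 1 library, Psma3 was called in 8, Rpn1 in 10, Ube2v2 in 12, Srsf1 in 13 and Sec13 in 17. Summing by stem, edgeR called none of the proteasome, ubiquitin, splicing or secretory genes, and with stem as a random effect Nsfl1c was the one call. Stem means overlapped between diets for Prpf19, Smu1 and Copb1, and did not for Srsf3, Srsf1, Zmat2, Rpn1, Tmed4 and Sec13.

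Of the 52 lists that the naming rule used, 41 had no member called, and over all genes tested 0.512% were called. All 13 mitochondrially encoded mRNAs had a positive log2 fold change, with a median of 0.20, and mt-Co1, a subunit of cytochrome oxidase, was called (0.23 ± 0.05, adjusted p = 0.0179). Its lowest, median and highest levels were 23100, 26900 and 30500 CPM on WPI, against 21500, 22600 and 24500 CPM on CAS, with stem means that did not overlap; without WPI replicates 8 or 12 the adjusted p was 0.0525 and 0.0516. The nuclear-encoded respiratory chain had 0 of 50 genes called and a median of 0.06, and cytosolic ribosomal proteins 0 of 47 and 0.05. Abcc4, which exports bile acids and cyclic nucleotides to blood, was the 1 call among 26 bile acid genes (0.48, adjusted p = 0.0455), in 7 of the 23 fits without 1 library. Lists of fatty acid synthesis (0 of 23, median −0.02), cholesterol synthesis and uptake (0 of 25, median 0.20), the urea cycle and amino acid breakdown (0 of 51, median 0.08) and the ATF4 amino acid response (0 of 31, median 0.01) had no call in edgeR. Against 2053 of the 15051 genes tested, 3, 6, 7 and 4 of their members had an unadjusted p under 0.05. The limma-voom fit with quality weights called 0, 0, 1 and 1 of them, and DESeq2 called 0 of each list.

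Marker lists of other liver cells had positive medians at FAT-20 without a call in edgeR. The median log2 fold change was 0.27 for 23 Kupffer cell and macrophage markers, 0.21 for 28 stellate cell and fibrosis genes and 0.19 for 20 endothelial markers, against 0.02 for 14 hepatocyte markers. Against 2053 of the 15051 genes tested, 6, 6 and 11 members of the Kupffer, stellate and endothelial lists had an unadjusted p under 0.05 in edgeR. The fit with quality weights called 6, 2 and 7 of them, and DESeq2 0, 1 and 0. Kupffer markers summed to 601 to 1150 CPM on WPI (median 930) and 438 to 1840 CPM on CAS (median 694). Stellate cell and fibrosis genes summed to 2610 to 3190 CPM on WPI (median 2860) and 2460 to 3380 CPM on CAS (median 2840), so their summed levels overlapped. Endothelial markers summed to 608 to 859 CPM on WPI (median 793) and 463 to 829 CPM on CAS (median 695), and hepatocyte markers to 116000 to 153000 CPM on WPI (median 133000) and 108000 to 153000 CPM on CAS (median 135000). The CAS maximum of the Kupffer list was 1 library, replicate 4, in which Marco, a macrophage scavenger receptor, stood at 160 CPM. Their part in the small steps of the proteasome and splicing groups was not tested, and in whole tissue fewer cells of a type and less RNA per cell cannot be told apart.

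**Figure D3:**
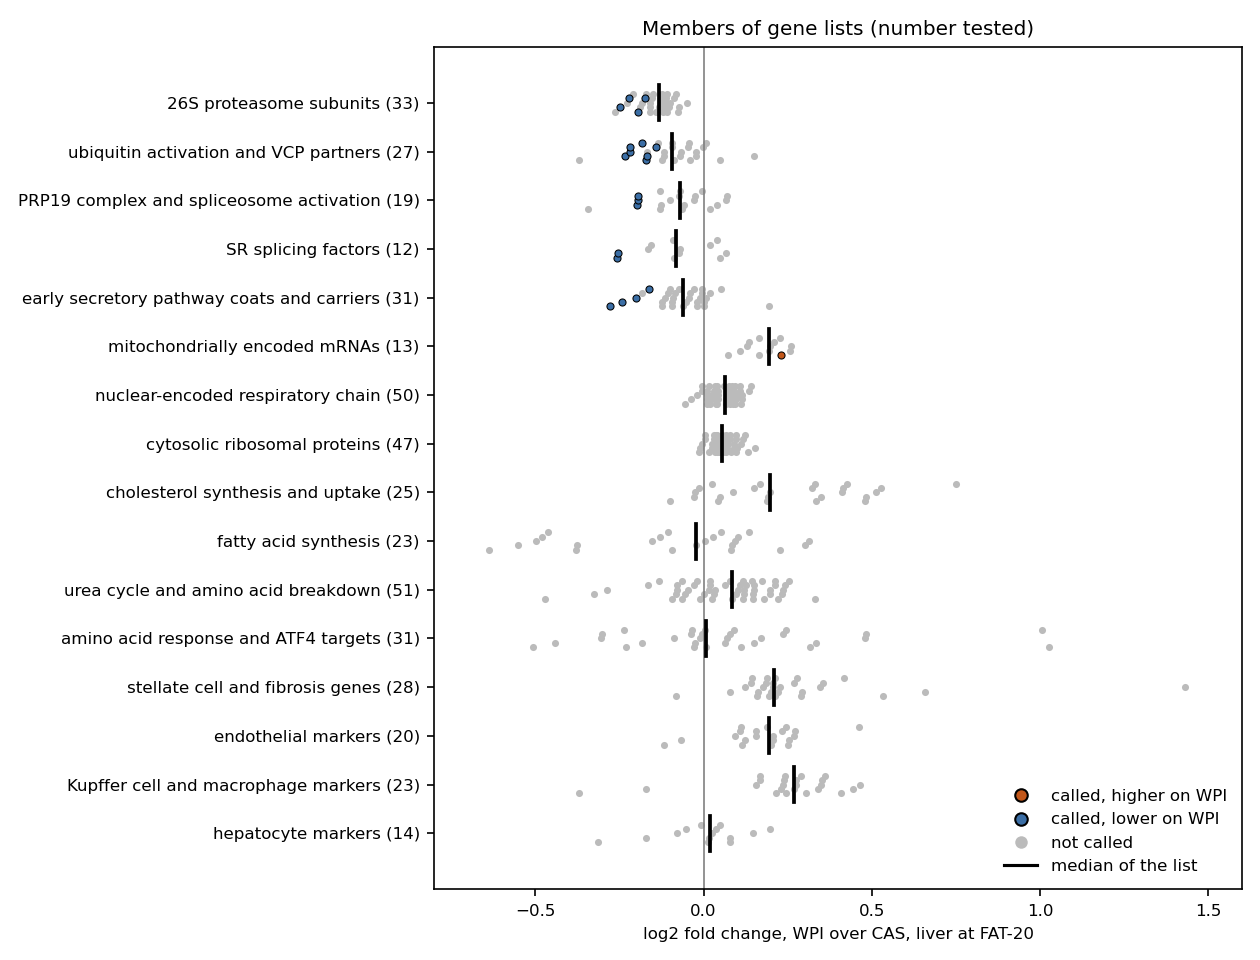
log2 fold changes (WPI over CAS, liver at FAT-20) of the tested members of 16 gene lists, 1 point per gene, with the number tested in brackets and a black bar at the list median. Orange points were called higher and blue points called lower on WPI. The proteasome points all lie below 0 around a median of −0.13, and the mitochondrially encoded mRNAs all lie above 0.

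The differences at FAT-20 were set beside the same contrast at the other fat levels, fitted in the same model with their own libraries. At FAT-40, 1236 genes were called (8.21%; 579 or 3.85% higher and 657 or 4.37% lower on WPI), and at FAT-55, 2183 (14.5%; 1064 or 7.07% higher and 1119 or 7.43% lower). Of the 77 genes called at FAT-20, 10 were also called at FAT-40, 9 of them in the direction seen at FAT-20, and 11 at FAT-55, 8 of them in that direction. In the opposite direction were Uaca at FAT-40 (−0.26) and Abcc4 (−0.45), Chil1 (−0.99) and Adtrp (0.38) at FAT-55. Spryd7 was called at all 3 levels, with log2 fold changes of −0.32, −0.27 and −0.23 from FAT-20 to FAT-55. Prpf19 was also called at each level.

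The difference of the contrast itself, FAT-20 minus another level, was called for 224 genes against FAT-40 (1.49%) and for 1027 against FAT-55 (6.82%). Of the 77 genes, 10 were among the calls against FAT-40 and 38 among those against FAT-55, in a test that shares the FAT-20 libraries with the rule that picked them. Mt1 had a log2 fold change of 2.04 at FAT-20, 1.43 at FAT-40 (adjusted p = 0.0111) and −0.11 at FAT-55. Its difference between FAT-20 and FAT-55 was 2.16 ± 0.55 (edgeR, adjusted p = 0.0116), and against FAT-40 it was 0.61 ± 0.54 (adjusted p = 0.61). Mt2 had 2.83, 1.83 and 0.04 from FAT-20 to FAT-55. Cux2 had 2.50, 1.21 and 0.13, with a difference from FAT-55 of 2.37 ± 0.77 (adjusted p = 0.0449).

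Lepr had −0.91 at FAT-20, 0.16 at FAT-40 and −0.36 at FAT-55, and its difference from FAT-40 was −1.08 ± 0.28 (adjusted p = 0.0293). Aldh1b1 had 0.85, −0.31 and −0.10, with differences of 1.17 ± 0.19 from FAT-40 (adjusted p = 0.000374) and 0.95 ± 0.19 from FAT-55 (adjusted p = 0.00169). Serpina12 had −1.34, −0.19 and −0.16, with differences of −1.15 from FAT-40 (adjusted p = 0.0537) and −1.18 from FAT-55 (adjusted p = 0.0239). Of these genes, Mt1 and Mt2 were the ones called at FAT-40 as well.

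Mean levels over the 6 diets show which group stood apart. Aldh1b1 averaged 53.7 CPM on WPI and 29.7 CPM on CAS at FAT-20, 64.1 and 79.6 CPM at FAT-40, and 71.0 and 76.0 CPM at FAT-55, in the same order of diets. The CAS FAT-20 livers were thus the low group. Lepr averaged 6.10 CPM on WPI and 11.5 CPM on CAS at FAT-20, 3.96 and 3.54 CPM at FAT-40, and 3.4 and 4.39 CPM at FAT-55, with CAS FAT-20 the high group. For Serpina12 the WPI FAT-20 livers were the low group, at 17.5 CPM against 44.4 CPM on CAS, with 28.1 to 38.7 CPM in the other 4 diets. For Cux2 the WPI FAT-20 livers were the high group, at 7.81 CPM against 1.38 CPM on CAS, with 0.55 to 1.36 CPM elsewhere. Mt1 averaged 95.8 CPM on WPI and 23.3 CPM on CAS at FAT-20, 81.9 and 30.5 CPM at FAT-40, and 47.8 and 51.7 CPM at FAT-55. Over the 77 called genes, CAS FAT-20 had the highest or lowest of the 6 means in 52 (67.5%) and WPI FAT-20 in 52 (67.5%), against 44.2% and 36.8% of all genes tested for the same diets; the calls come from these means.

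**Figure D4:**
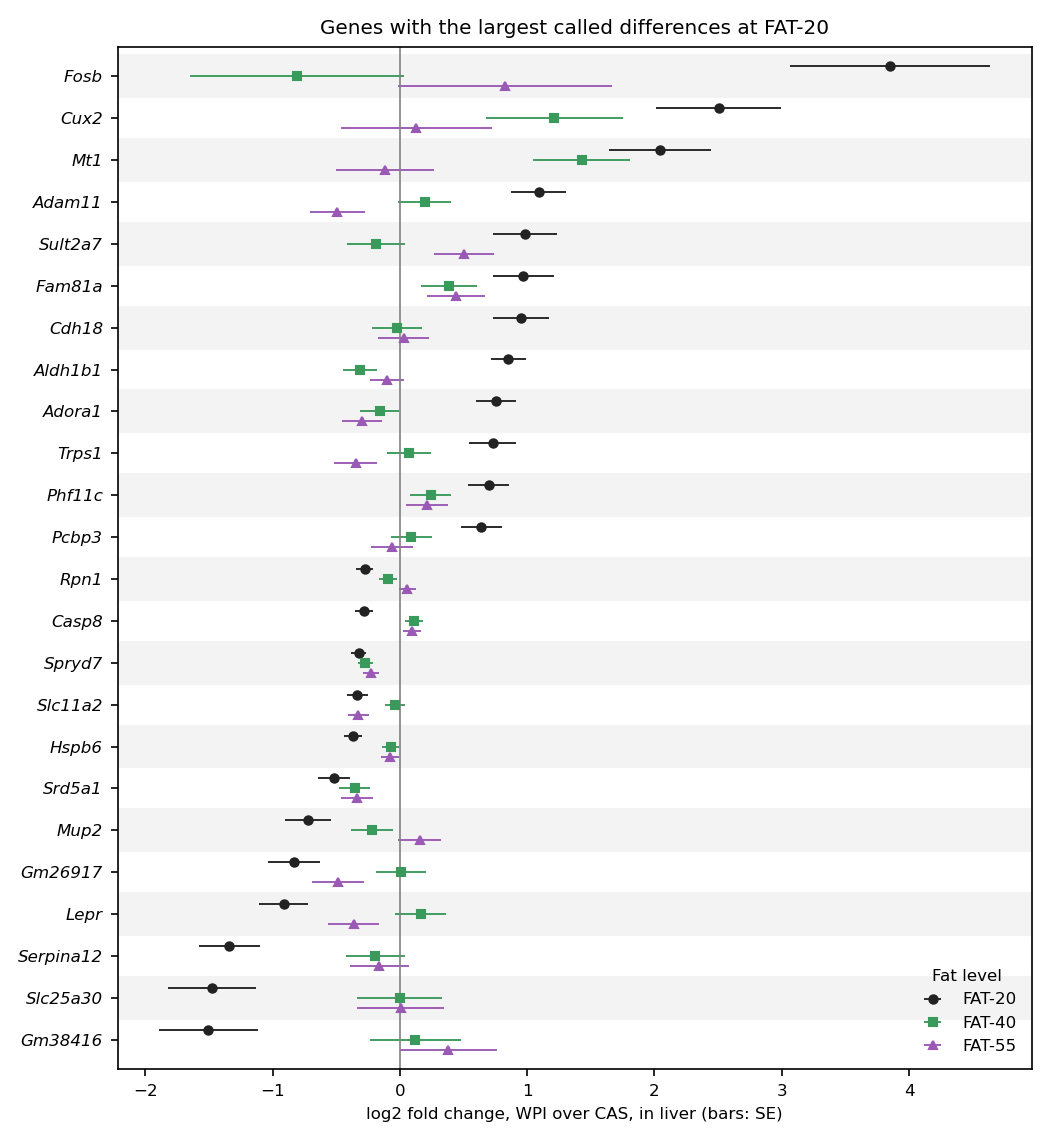
log2 fold changes of WPI over CAS in liver, with SE bars, at FAT-20 (black circles), FAT-40 (green squares) and FAT-55 (purple triangles) for the 12 genes with the largest positive and the 12 with the largest negative called difference at FAT-20. The black points were chosen for their size; most green and purple points lie nearer to 0, and those of Spryd7 lie close together at −0.32, −0.27 and −0.23.

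Of the lists with more than 1 tested gene, the male-biased liver genes had the largest median difference of the contrast between FAT-20 and FAT-55. While 0 of its 31 tested genes were called at FAT-20, 15 were called higher on WPI and 1 lower at FAT-40 (list median 0.76), and 18 higher and 0 lower at FAT-55 (median 0.94). Among all genes tested, 3.85% were called higher and 4.37% lower at FAT-40, and 7.07% higher and 7.43% lower at FAT-55. In the difference of the contrast, 8 of 31 were called lower at FAT-20 than at FAT-40 (median −0.87), and 15 of 31 lower than at FAT-55 (median −1.15); over all genes 1.49% and 6.82% were called in either direction. Slco1a1, an uptake carrier for organic anions, averaged 332 ± 60.5 CPM on WPI and 470 ± 87.8 CPM on CAS at FAT-20, and 216 ± 112 CPM on WPI and 69.8 ± 64.8 CPM on CAS at FAT-55. Its log2 fold changes were −0.50 and 1.63, and their difference was −2.12 (adjusted p = 0.00625). Hsd3b5, a steroid dehydrogenase, averaged 84.3 ± 40.1 CPM on WPI and 149 ± 60.5 CPM on CAS at FAT-20, and 75.0 ± 66.8 CPM on WPI and 6.33 ± 10.8 CPM on CAS at FAT-55 (difference −4.38, adjusted p = 0.00413). Cyp7b1, an oxysterol hydroxylase, averaged 207 ± 56.9 CPM on WPI and 232 ± 43.4 CPM on CAS at FAT-20, and 184 ± 49.7 CPM on WPI and 95.7 ± 23.9 CPM on CAS at FAT-55 (difference −1.10, adjusted p = 0.029). By these means the CAS livers were lower at FAT-55 than at FAT-20 in all 3 genes, and the WPI livers were lower by less. Slco1a1, Hsd3b5 and Cyp7b1 were picked after their values were seen. Several members of the list are Mup genes of near-identical sequence. With reads summed by stem 0 of the 15 calls against FAT-55 and 0 of the 8 against FAT-40 were made, and with stem as a random effect 7 and 0.

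**Figure D5:**
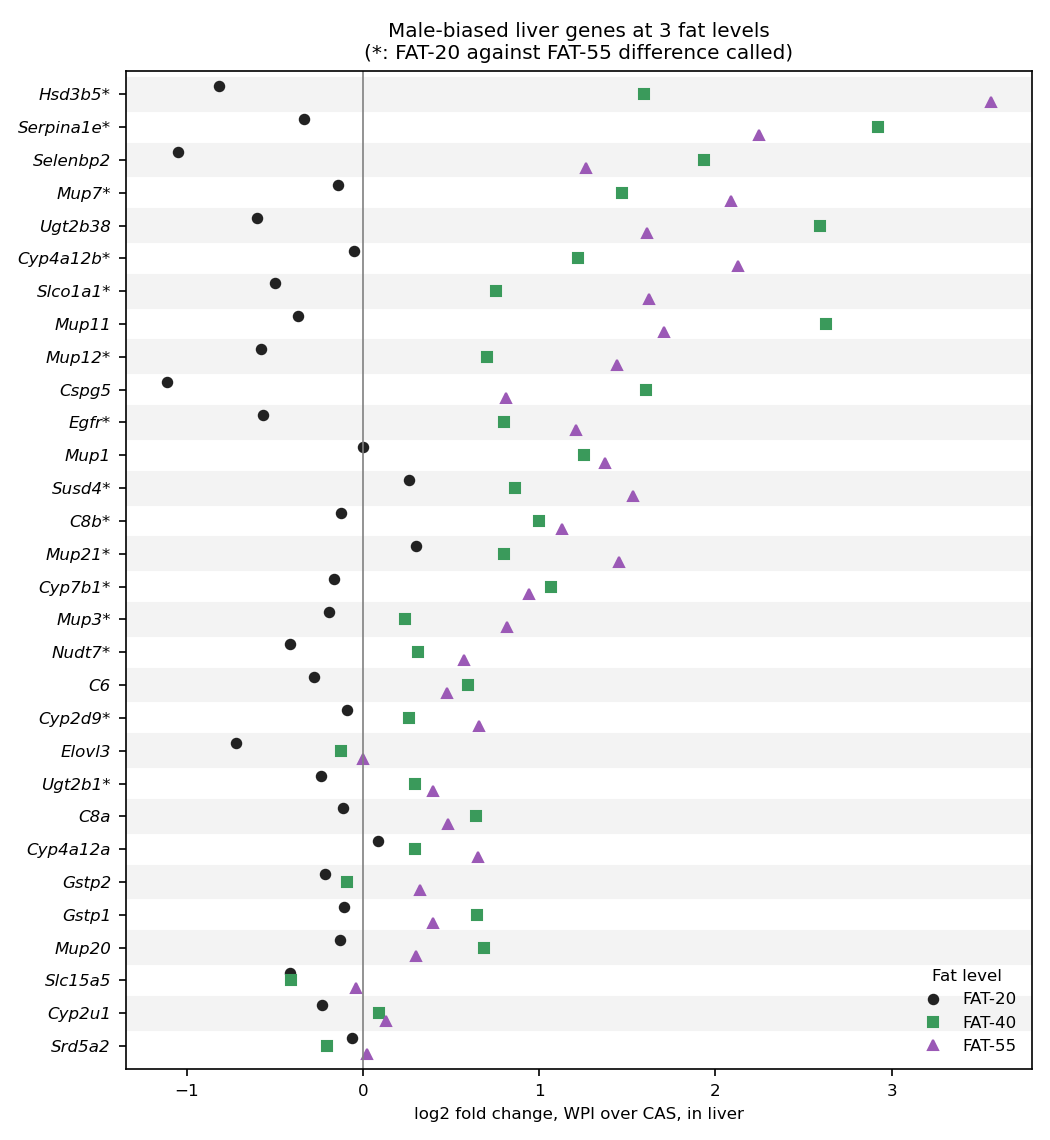
log2 fold changes of WPI over CAS in liver for 30 of the 31 tested male-biased genes, at FAT-20 (black circles), FAT-40 (green squares) and FAT-55 (purple triangles), sorted by the difference between FAT-20 and FAT-55. Stars mark genes whose difference was called; Moxd1, which is near 0 in some diets, is not drawn. FAT-20 points lie around −0.23 and most of the others above 0.

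In the proteasome list, 13 of 33 differences between FAT-20 and FAT-55 were called, against 6.82% of all genes, and all 33 subunits had a lower log2 fold change at FAT-20 (median difference −0.20). The difference from FAT-40 was called for 0 of 33 (median −0.08), with 3 in the fit with quality weights and 1 in DESeq2. The list was written from calls at FAT-20, and the differences share those libraries. Within FAT-40, 2 of 33 were called lower and 0 higher (median −0.06), and within FAT-55, 1 lower and 3 higher (median 0.03), against 4.37% lower and 3.85% higher over all genes at FAT-40 and 7.43% and 7.07% at FAT-55. Of the differences from FAT-55, 4 were called without a filter on low counts, 7 with only the libraries of the diets compared, 1 with stem as a random effect and 0 with stem sums.

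Stellate cell and fibrosis genes had 14 of 28 differences from FAT-55 called, all more positive at FAT-20 (median 0.73), against 6.82% of all genes. Other lists above that share included complement and coagulation (11 of 36, 10 of them more negative at FAT-20), bile acid synthesis and transport (8 of 26, 7 more negative), endothelial markers (6 of 20, all more positive) and cytochromes (9 of 48, 6 more negative). Within FAT-20 0 of the 28 stellate cell and fibrosis genes were called by edgeR. Within FAT-55 16 were called lower on WPI and 0 higher (median −0.51), against 7.43% lower and 7.07% higher over all genes. Col1a2, a chain of type I collagen, averaged 9.24 ± 3.01 CPM on WPI and 7.29 ± 2.27 CPM on CAS at FAT-20, and 11.5 ± 4.74 CPM on WPI and 24.7 ± 12.4 CPM on CAS at FAT-55 (difference of log2 fold changes 1.45 ± 0.32, adjusted p = 0.00406). Col3a1, of type III collagen, averaged 19.5 ± 5.08 CPM on WPI and 16.9 ± 4.89 CPM on CAS at FAT-20, and 28.9 ± 13.7 CPM on WPI and 63 ± 28.2 CPM on CAS at FAT-55 (difference 1.33 ± 0.33, adjusted p = 0.0101). Both collagens were picked after their values were seen, and at FAT-20 neither was called (adjusted p = 0.529 and 0.736). With reads summed by stem 0 of the differences of the stellate cell and fibrosis list were called, and with stem as a random effect 2. Kupffer cell markers had 5 of 23 differences from FAT-55 called, all more positive at FAT-20 (median 0.53). That count was 0 without a filter on low counts, with only the libraries of the diets compared, with stem sums and with stem as a random effect, and 12 with quality weights.

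Cell cycle genes had 0 of 35 called at FAT-20, where 1 had an unadjusted p under 0.05 and DESeq2 and the quality weights each called 1. At FAT-40, 19 were called lower on WPI, against 4.37% of all genes, and at FAT-55 18, against 7.43%. The difference of the contrast was called for 5 of the 35 against FAT-40, 4 more positive and 1 more negative at FAT-20 (1.49% of all genes), and for 2 against FAT-55, 1 in each direction (6.82% of all genes). With stem sums or stem as a random effect 0 of these differences were called.

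In the jejunum of the same mice, by their identifiers, 1058 of 16992 genes (6.23%) were called between WPI and CAS at FAT-20. Of these, 452 (2.66%) were higher and 606 (3.57%) lower. A call shared by both tissues is therefore not a repeat in other animals. Of the 77 genes called in liver, 69 were tested there and 6 were called, 4 of them in the direction seen in liver. Mt1 was higher in WPI jejunum, at 103, 216 and 272 CPM as lowest, median and highest levels, against 63.0, 108 and 203 CPM on CAS (log2 fold change 0.76 ± 0.23, adjusted p = 0.0316). Aldh1b1 was higher (0.38, adjusted p = 0.000404) and so was Uaca (0.25, adjusted p = 0.021), while Rcbtb2 was lower (−0.26, adjusted p = 0.0324). Antxr2 (−0.32, adjusted p = 0.00312) and Srd5a1 (0.40, adjusted p = 0.000959) were called in the opposite direction to liver. Lepr (−0.26, adjusted p = 0.346), Cux2 (0.20, adjusted p = 0.284) and Mt2 (0.89, adjusted p = 0.07) were not called in jejunum.

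The count of calls depended on stems and on single libraries. Without stem L2C, the CAS stem that lay beside WPI libraries on the first component, edgeR called 699 genes, 353 higher and 346 lower on WPI, and 75 of the 77 were among them. Without stem L2D, the WPI stem that lay beside CAS libraries, it called 444, again with 75 of the 77. Without L2B, L4D or L4A it called 12, 10 and 15 genes, and without L2F, L3C and L5A 39, 47 and 78. Leaving out single libraries gave 29 (without CAS replicate 1) to 281 calls (without CAS replicate 4), of which 29 and 77 were among the 77. The calls were kept without any 1 library for 25 of the 77 genes, and also without any 1 stem for 5: Aldh1b1, Antxr2, Serpina12, Hspb6 and Spryd7.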

How the data were processed

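Total RNA of livers (70 libraries) and jejunum (70) was sequenced with standard Illumina libraries, per the labels. Trimming and quality control with Trim Galore 0.61, cutadapt and FastQC, the aligner STAR, the package DESeq2 1.24.0 and the build GRCm38 are named in the submitters' processing notes. The annotation release, the strand setting and the aligner's settings for reads that match several places are not given in the sources used here. The authors deposited counts, that is, whole reads per gene, unscaled, for 55536 genes. Non-gene entries were left out of library sizes. Reads that matched several places were one of these non-gene entries. They made up 7.84% of all entries in the WPI group and 7.34% in the CAS group, which lowers the counts of near-identical genes. No columns lacked a sample (0), and 0 pairs of libraries were duplicates. Gene IDs were matched to GENCODE M21 (55450 of them).

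A quasi-likelihood model of edgeR 4.0.16 (R 4.3.3) was fitted on all 70 liver libraries, and apart from it on all 70 jejunum libraries, with a coefficient for each of the 6 diets. It used TMM factors and the genes that filterByExpr left at a minimum count of 10 and a minimum total of 15. Differences between fat levels were contrasts of the same fit. Calls required an adjusted p under 0.05, by the method of Benjamini and Hochberg over every gene of the comparison. For Mt1, Mt2, Cux2 and Lepr, the log2 CPM (prior count 2) averaged over each of the 8 stems was compared by an exact permutation test (70 splits). The tests across genes were first tested on simulated data. These were drawn for each library without a stem effect, so they could not show how the tests behave where stems differ. Counting error is small at 22.5 to 32.3 M reads a library, except for genes with few reads.

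Members and lists were chosen with earlier results of these data known. Named were Mt1, Mt2, Lepr and Cux2, the 12 largest positive and 12 largest negative called log2 fold changes at a mean of at least 1 CPM, 3 members with the smallest adjusted p from each of 52 gene lists, up to 6 called genes also called in a difference between fat levels, and tissue checks. Lists of the proteasome, ubiquitin, splicing and secretory genes, and the genes named from them or described as picked later, were added after values were seen. A called gene is not reported here by name. Promoters came from RefSeq (GRCm38.p6). Alternatives were RLE factors, no filter, a fit of the diets compared only, sums by stem, limma-voom (3.58.1) with a random effect for stem (correlation 0.16) or with quality weights, DESeq2 1.42.0, and leaving out each library or stem. Plots were drawn with matplotlib 3.10.9.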

Additional observations from a re-analysis of the deposited data

Results flagged for a closer look

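The genes called at FAT-20 are listed here where they differed from another fat level in the test of the difference itself, WPI over CAS at FAT-20 minus the same contrast at that level (edgeR, adjusted p under 0.05). Values are differences of log2 fold changes, and the tests share the FAT-20 libraries through which the genes were picked. Genes outside the naming rule are included.

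Against FAT-55, metallothionein genes and Cux2 were more positive at FAT-20: Mt1 by 2.16, Mt2 by 2.79 and Cux2 by 2.37. So were the chitinase-like gene Chil1 (2.93), Adam11 (1.58), Trps1 (1.08), Adora1 (1.05), Aldh1b1 (0.95), Gm38192 (1.07), Abcc4 (0.93), Cdh18 (0.92), Ftl1-ps1 (0.78), Pcbp3 (0.70), Tbx20 (0.67), C1qtnf1 (0.47), Pacs2 (0.27) and Man2b1 (0.22). More negative at FAT-20 than at FAT-55 were Gm38416 (−1.89), Slc25a30 (−1.48), Serpina12 (−1.18), Mup2 (−0.88), Adtrp (−0.61), Casp8 (−0.37) and Rpn1 (−0.34). Smaller negative differences from FAT-55 were found for the proteasome genes Psmd12 (−0.28), Psma3 (−0.24) and Psma5 (−0.23), and for the splicing genes Srsf1 (−0.28), Srsf3 (−0.27), Smu1 (−0.25) and Zmat2 (−0.22). The same held for Pja1 (−0.27), Erh (−0.26), 1110004F10Rik (−0.21), Rcbtb2 (−0.20), Rars (−0.18) and Drg1 (−0.15). In all, 18 of the 77 genes were more positive and 20 more negative at FAT-20 than at FAT-55.

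Against FAT-40, Fosb (4.66), Aldh1b1 (1.17), Adora1 (0.91), Uaca (0.60) and Antxr2 (0.43) were more positive at FAT-20, and Lepr (−1.08), Casp8 (−0.39), Adtrp (−0.37), Srsf3 (−0.31) and 1110004F10Rik (−0.22) more negative. The Fosb value rests on WPI replicates 3 and 5, and in DESeq2 it was −0.55 with an adjusted p of 0.647.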

How the results depend on the processing

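With RLE factors the counts of calls moved by under 1.5 times in each comparison, and 76 of the 77 genes remained. Without a filter on low counts 30 genes were called at FAT-20 (19 higher, 11 lower), with only the libraries of both diets 51 (18 higher), with stem sums 0, with a random effect for stem 7 (3 higher, 4 lower), with quality weights 515 (231 higher, 284 lower) and in DESeq2 158 (67 higher, 91 lower). Leaving out 1 library or stem gave 10 to 699 calls, 5 to 353 of them higher and 5 to 346 lower. For the difference from FAT-40 (224 calls) these fits gave 107 without a filter (52 more positive, 55 more negative), 0 with stem sums, 2 with the random effect (2 and 0), 538 with quality weights (264 and 274) and 378 in DESeq2 (148 and 230). For the difference from FAT-55 (1027 calls) they gave 539 without a filter (321 and 218), 2 with stem sums (0 and 2) and 110 with the random effect (61 and 49). Stem sums gave 227 calls in jejunum. Over 77 genes and all settings, 1836 results kept their call, 1083 lost it with the same sign, and 1 turned: Fosb at −0.57 in DESeq2; its difference from FAT-40 also turned, at −0.55. The causes were not tested. The 4 permutation results over stems kept their side of 0.05 with other prior counts and RLE factors. Those of Mt1, Cux2 and Lepr stayed at 0.0286, the smallest p that 70 splits allow. Such settings could hardly move them, so nothing is read from this. Few reads limit Mt2, with 0 to 81 a liver, and other called genes such as Chil1. Whether the overlap with Gm45774 lowers the Mt2 counts was not tested, so they may not measure all Mt2 RNA. No paired analysis was possible because the labels give no replicate number that diets share.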
